A study of Bos taurus with 31 samples.

Results

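The genes described here are 35 genes of peroxisome assembly and peroxisomal oxidation, read from the liver transcriptome of dairy cows. They were taken by gene symbol from a raw count matrix of 24616 genes, and all 35 were found. The study fed lactating German Holstein cows a total mixed ration that was either contaminated with glyphosate (GLY) or a control ration (CON), and each ration had either a higher (HC) or a lower (LC) proportion of concentrate feed. The glyphosate residues came with peas, wheat grain and straw from crops sprayed before harvest with the formulation Roundup Record, and straw was the main source. Per the paper, CON cows also had a minimal background exposure. Exposure was higher in GLY_HC than in GLY_LC cows, which the paper puts down to a higher feed intake. Liver RNA from the end of the trial was sequenced in 8 CON_HC, 8 CON_LC, 8 GLY_HC and 7 GLY_LC cows, with 1 biopsy library per cow. The question was whether the transcripts of this organelle differed with concentrate feed proportion (CFP), with GLY, or with their combination.

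Peroxisomes import their folded matrix enzymes through a machinery of PEX proteins and carry out reactions that mitochondria do not, including the shortening of very long-chain and branched fatty acids, alpha-oxidation, the first steps of ether lipid synthesis and, in liver, bile acid side-chain oxidation and glyoxylate disposal. Their beta-oxidation produces hydrogen peroxide, and the shortened acyl groups leave the organelle as carnitine or free acids for mitochondria. In liver, several of these genes, EHHADH most of all, are classic targets of the fatty acid receptor PPARA.

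Each cow gave between 11675775 and 36675542 gene-assigned reads. Levels are given as CPM, the reads of a gene per 1e+06 reads of the library after TMM scaling, which lets 1 gene be compared between cows but does not rank genes against each other, since it is not corrected for gene length. A gene was called when its p in the edgeR quasi-likelihood test was under 0.05 before and under 0.1 after Benjamini-Hochberg adjustment over the 15916 genes tested. The 6 hepatocyte marker genes (ALB, APOA1, TTR, APOB, SERPINA1 and FGB) summed to between 92600 and 181000 CPM per cow, and none was at 0. The lowest of these sums was in cow 912 of GLY_LC, against at least 104000 CPM in the other 30 cows. In the same cow, 6 intestinal epithelium genes summed to 440 CPM, against 38.5 to 105 CPM in the others. FABP2, MUC13 and BCO1 of that list were called lower in HC and had fewer than 20 reads in all once cow 912 was left out. Because this library stood apart, results that rest on it are given with and without it. In bulk tissue, fewer cells of a type and less RNA per cell cannot be told apart.

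Of the 35 members, 34 passed the minimum of 20 reads summed over all cows. ABCD2, a peroxisomal transporter of very long-chain acyl-CoA, had 8 reads in 6 cows and at most 3 reads in a cow, and was not tested. The other members had between 3243 reads in all (PEX26) and 1099487 reads (SCP2). Between cows of 1 group the levels were mostly tight. The median coefficient of variation over the 4 groups was 9.5% for PEX19 and 9.84% for PEX5, and it reached 30.6% for the thioesterase ACOT8 and 33% for the pipecolate oxidase PIPOX.

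With CFP, 1 of the 34 members was called. PEX5 (ENSBTAG00000010490), the cytosolic receptor that carries proteins with the common C-terminal import signal into the peroxisome, was higher in HC. In CON_HC cows PEX5 lay between 57.5 and 74.4 CPM with a median of 69.8, and in CON_LC cows between 54.5 and 69.0 CPM with a median of 61.4. In GLY_HC cows it lay between 62.7 and 81.7 CPM with a median of 74.3, and in GLY_LC cows between 43.5 and 69.2 CPM with a median of 62.1. The HC cows were thus higher in both rations, although the groups overlapped: 15 of 16 HC cows were above the LC median of 62.1 CPM, and 9 were above every LC cow. Over all cows the log2 fold change was 0.21 (SE 0.06, 95% interval 0.09 to 0.33), with an adjusted p of 0.0948. Among all genes tested in this comparison, 1.45% were called. When each cow was left out in turn the log2 fold change stayed between 0.18 and 0.23, but PEX5 was called in 7 of the 31 fits only, those without CON_HC cow 123, 134 or 144, CON_LC cow 145, 169 or 260, or GLY_LC cow 209, with adjusted p between 0.0692 and 0.0946. In the other 24 fits adjusted p was between 0.102 and 0.145. Without GLY_LC cow 912, which had the lowest PEX5 level of all cows, it was 0.18 (SE 0.05) with an adjusted p of 0.129, and 0.863% of 15752 genes were then called.

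**Figure D1:**
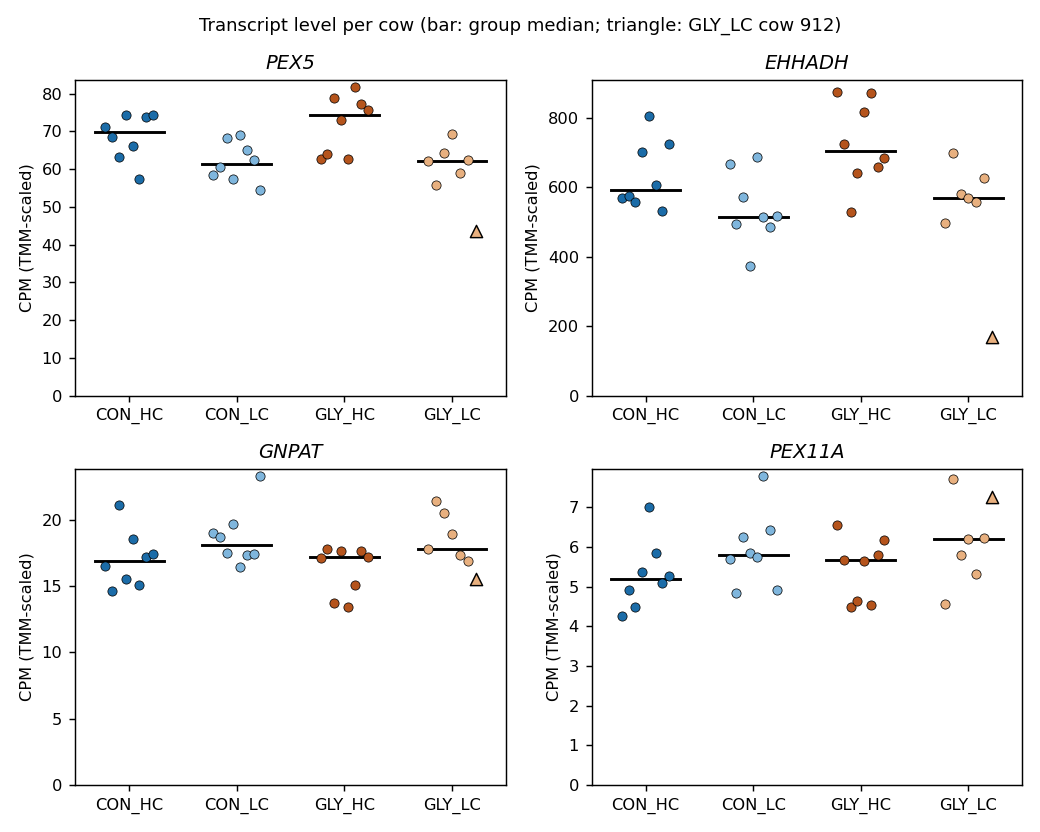
Transcript levels of PEX5, EHHADH, GNPAT and PEX11A in each cow, in TMM-scaled CPM on axes that start at 0, by feeding group; bars are group medians and the triangle is GLY_LC cow 912. The HC medians of PEX5 (69.8 and 74.3 CPM) lie above the LC medians (61.4 and 62.1 CPM), while cows of the 2 diets overlap for all 4 genes.

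EHHADH, the L-bifunctional enzyme that hydrates and dehydrogenates acyl-CoA in the peroxisome, had the largest positive fold change of the members with CFP but was not called. Its level ran from 531 to 806 CPM in CON_HC (median 591), from 373 to 687 CPM in CON_LC (median 516), from 528 to 874 CPM in GLY_HC (median 705) and from 169 to 699 CPM in GLY_LC (median 568). Here 13 of 16 HC cows were above the LC median of 559 CPM, and 7 were above every LC cow. The log2 fold change over all cows was 0.34 (SE 0.12, interval 0.09 to 0.60) with an adjusted p of 0.200. The lowest GLY_LC value was that of cow 912, and the next cow of that group had 498 CPM. Without that cow the log2 fold change was 0.27 (SE 0.08, interval 0.09 to 0.44) and adjusted p was 0.166, so that the estimate fell while its error also fell.

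HSD17B4, the D-bifunctional enzyme that catalyses the same steps with the opposite stereochemistry and takes branched and bile acid intermediates, had medians of 543 CPM in CON_HC, 565 in CON_LC, 532 in GLY_HC and 611 in GLY_LC. Its log2 fold change with CFP was -0.10 (SE 0.10, adjusted p 0.693), opposite in sign to that of EHHADH. In a description chosen after the values were seen, the median number of EHHADH reads per HSD17B4 read was 1.12 in CON_HC and 0.879 in CON_LC, and 1.31 in GLY_HC and 0.973 in GLY_LC. The other 4 beta-oxidation members were not called. ACOX2, an oxidase of branched and bile acid chains, had a log2 fold change of 0.06 (SE 0.11), its relative ACOX3 0.13 (SE 0.12), the thiolase ACAA1 0.08 (SE 0.09) and SCP2, the thiolase and lipid transfer protein, 0.09 (SE 0.12). Each of these differences was within or close to its own error. Their group medians ranged from 469 to 559 CPM for ACOX2, from 17.4 to 22.9 for ACOX3, from 775 to 856 for ACAA1 and from 1540 to 1820 for SCP2.

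Of the 11 members of membrane and matrix protein import, 8 had positive and 3 negative log2 fold changes with CFP, with a median of 0.07, and PEX5 was the single call. PEX10, a RING ubiquitin ligase that acts on the import receptors, came next by p, at 0.13 (SE 0.08, adjusted p 0.506). Its medians were 52.5 CPM in CON_HC, 47.0 in CON_LC, 54.2 in GLY_HC and 50.2 in GLY_LC. The partner ligase PEX2 had a log2 fold change of -0.0015 (SE 0.08). The docking factors PEX13 and PEX14 were at 0.06 and -0.02, and PEX7, the receptor for the N-terminal import signal, at 0.06. PEX6, an ATPase that recycles PEX5, was at 0.07, as was its membrane anchor PEX26. PEX3, PEX16 and PEX19, which insert peroxisomal membrane proteins, were at 0.13, 0.09 and -0.01. All adjusted p of this group other than that of PEX5 were 0.506 or above.

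Lower values in HC were seen in GNPAT and PEX11A, neither of which was called. GNPAT starts ether lipid synthesis, the route to plasmalogens. It lay between 14.6 and 21.1 CPM in CON_HC (median 16.9), between 16.4 and 23.3 in CON_LC (median 18.1), between 13.4 and 17.8 in GLY_HC (median 17.2) and between 15.5 and 21.4 in GLY_LC (median 17.8). Of the 16 HC cows, 13 were below the LC median of 17.8 CPM. The log2 fold change was -0.16 (SE 0.06, interval -0.28 to -0.03, adjusted p 0.232), and -0.17 without cow 912 (adjusted p 0.219). AGPS, the next enzyme of the route, had a value of -0.0018 (SE 0.06). PEX11A, which elongates peroxisomes before division, had medians of 5.19, 5.80, 5.67 and 6.21 CPM in CON_HC, CON_LC, GLY_HC and GLY_LC. Its log2 fold change was -0.17 (SE 0.08, adjusted p 0.347), and its relative PEX11G was at 0.04 (SE 0.07). In the cattle annotation at hand, which is of another assembly than the one used for counting, PEX11A overlaps PLIN1. Some of its reads may belong to that gene.

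Among the amino acid and glyoxylate oxidases, HAO1, which makes glyoxylate, had medians of 169 CPM in CON_HC, 187 in CON_LC, 174 in GLY_HC and 194 in GLY_LC. Its log2 fold change with CFP was -0.11 (SE 0.08, adjusted p 0.583), and -0.16 (SE 0.06, adjusted p 0.239) without cow 912. PIPOX was at -0.14 (SE 0.18), and AGXT, which turns glyoxylate into glycine, at 0.05 (SE 0.12). The 6 auxiliary enzymes for branched or unsaturated chains had small differences. AMACR, PHYH and HACL1, which handle branched chains and alpha-oxidation, were at 0.05, 0.02 and 0.02, and ECI2, DECR2 and PECR, which handle double bonds, at -0.01, 0.10 and -0.06. Their errors were between 0.06 and 0.08. The carnitine octanoyltransferase CROT was at 0.05 (SE 0.12), ACOT8 at 0.0081 (SE 0.16), and the transporters ABCD3 and ABCD4 at 0.02 each. ABCD4 is included by family, although its protein is known for cobalamin transport in lysosomes.

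Over the whole list, 23 of the 34 members had a higher and 11 a lower level in HC, with a median log2 fold change of 0.045, where all genes tested had a median of -0.015 and 46% were higher. At an unadjusted p under 0.05 there were 2 higher members (PEX5 and EHHADH) and 2 lower ones (GNPAT and PEX11A), against 13.7% of all genes. A share of 4 in 34 is near that background. Without cow 912, 22 members were higher and 12 lower, with a median of 0.013. Then 2 higher (PEX5 and EHHADH) and 2 lower members (GNPAT and HAO1) had an unadjusted p under 0.05, against 11.9% of genes, and none was called. The sign turned without that cow for 7 members near 0, which were PEX2, PEX19, ABCD3, ABCD4, HACL1, ACOT8 (from 0.0081 to -0.07) and AGPS. Some markers of other cells also differed with CFP. All 4 stromal genes were lower in HC, with DCN called at a log2 fold change of -0.50 (adjusted p 0.0275), and their sum ran from 162 to 265 CPM in CON_HC, 144 to 1680 in CON_LC, 118 to 186 in GLY_HC and 182 to 350 in GLY_LC. Without cow 912 DCN was at -0.51 (adjusted p 0.0344). Of 5 leukocyte genes CD68 was called higher (0.61, adjusted p 0.0948, and 0.55, adjusted p 0.137, without cow 912). The summed list did not follow it, with medians of 304 CPM in CON_HC, 290 in CON_LC, 292 in GLY_HC and 319 in GLY_LC, and ran from 247 to 364 CPM in CON_HC, 250 to 323 in CON_LC, 269 to 362 in GLY_HC and 259 to 367 in GLY_LC. Of 5 epidermal genes KRT1 and KRT14 were called higher, with sums from 0.495 to 1.3 CPM in CON_HC, 0.363 to 1.26 in CON_LC, 0.489 to 9.28 in GLY_HC and 0.426 to 1.54 in GLY_LC. The medians of these sums were 0.747, 0.853, 1.45 and 0.762 CPM in the same order, so these calls rest on genes with very few reads. No bile duct or endothelial marker was called. The part of these markers in the differences of the peroxisome genes was not tested.

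**Figure D2:**
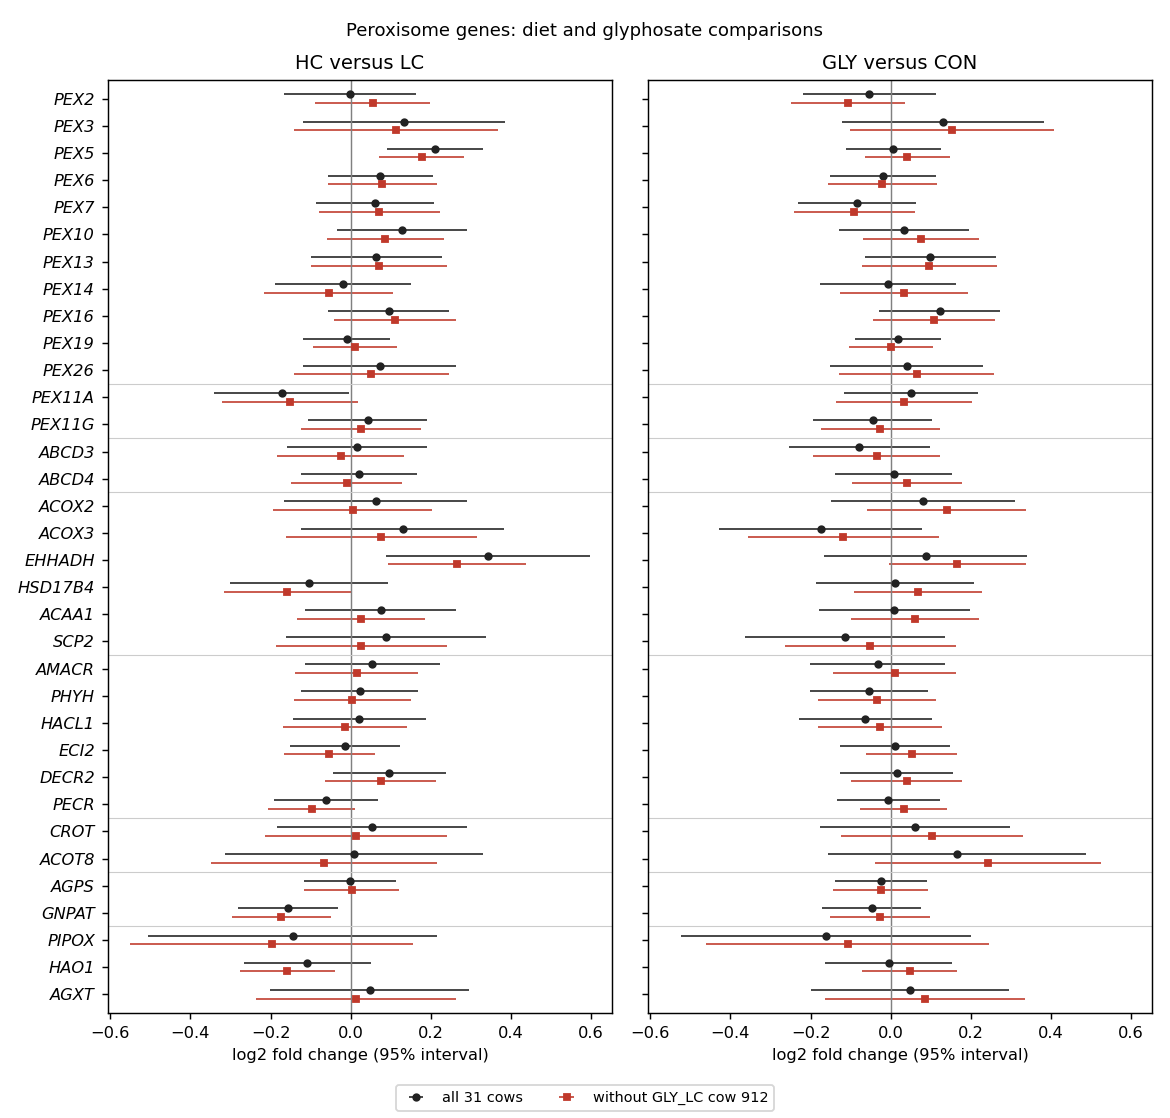
Log2 fold change with its 95% interval for the 34 tested members, HC against LC (left) and GLY against CON (right), from all 31 cows (black circles) and without GLY_LC cow 912 (red squares); the grey line marks no difference. PEX5 at 0.21 and EHHADH at 0.34 lie to the right of it on the left panel, and every interval from all cows spans it on the right panel.

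Within CON cows alone no member was called for CFP, and none of the 15916 genes was (0%). With DESeq2 at the same thresholds, the paper reports genes that differed with CFP within CON cows and within GLY cows. It also reports GLY-responsive genes among HC and among LC cows. The smallest p belonged to PEX14, a docking factor for loaded import receptors, with a range of 13.3 to 16.9 CPM in CON_HC (median 15.0) and of 15.4 to 22.5 CPM in CON_LC (median 17.0). All 8 CON_HC cows were below the CON_LC median. The log2 fold change was -0.22 (SE 0.11, adjusted p 0.813), and PEX14 was the single member with an unadjusted p under 0.05, where 5.96% of genes had one. PEX5 had 0.15 (SE 0.08, adjusted p 0.851), PEX2 0.17 (SE 0.11) and EHHADH 0.24 (SE 0.17). On the lower side stood GNPAT at -0.14 (SE 0.09) and PEX11A at -0.17 (SE 0.12).

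Within GLY cows no member was called either, against 0.201% of genes. PEX5 had a log2 fold change of 0.28 (SE 0.08, interval 0.10 to 0.45, adjusted p 0.187), and all 8 GLY_HC cows were above the GLY_LC median. EHHADH had 0.46 (SE 0.18, adjusted p 0.286), and 7 of the 8 GLY_HC cows were above the GLY_LC median. These were the 2 members with an unadjusted p under 0.05, where 12.5% of genes had one. ACOX3 followed at 0.34 (SE 0.17, adjusted p 0.418), with GNPAT at -0.18 (SE 0.09), PEX2 at -0.19 (SE 0.11) and PEX11A at -0.17 (SE 0.12) on the lower side. Without cow 912 PEX5 was at 0.21 (SE 0.08, adjusted p 0.487) and EHHADH at 0.30 (SE 0.13, adjusted p 0.540), and the members changed from 24 higher and 10 lower to 19 higher and 15 lower. Of all genes, 50.7% were higher without that cow. HSD17B4 then came to -0.29 (SE 0.11, adjusted p 0.518), with GNPAT at -0.22 and HAO1 at -0.18, so that 5 members had an unadjusted p under 0.05, against 8.37% of genes, of which 0% were called. The contrasts within CON and within GLY share no cows, and 24 of 34 members had the same sign in both (70.6%, against 58.1% of all genes). Without cow 912 this was 19 of 34 members (55.9%, against 58.4%).

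**Figure D3:**
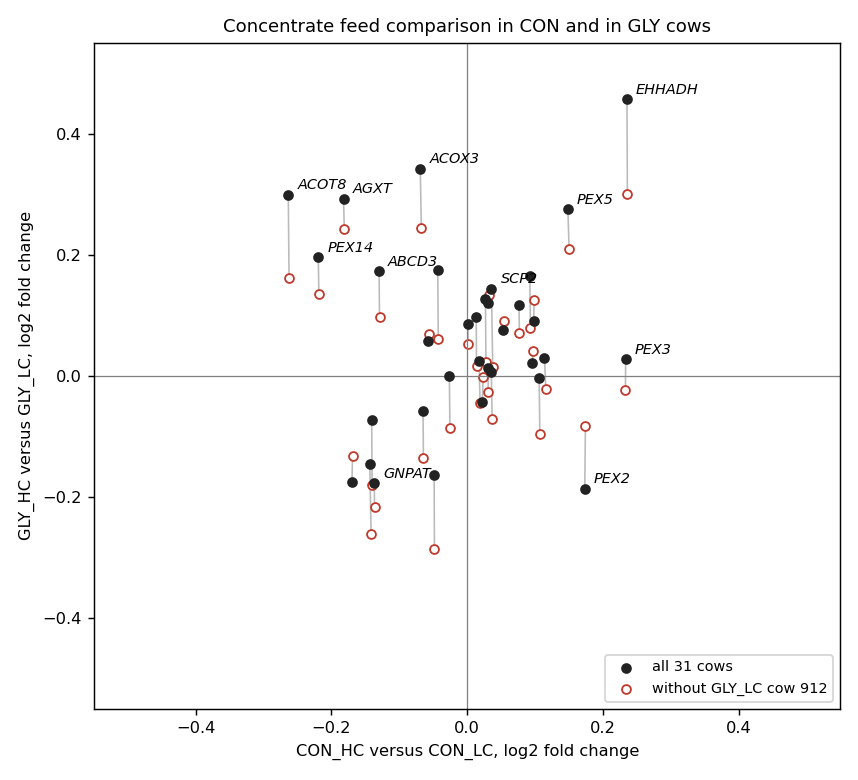
Log2 fold change of HC against LC in CON cows (horizontal axis) and in GLY cows (vertical axis), 1 point per member, from all 31 cows (filled) and without GLY_LC cow 912 (open), joined by a line. EHHADH (0.24 and 0.46) and PEX5 (0.15 and 0.28) lie furthest towards the upper right, and leaving out cow 912 moves most points downwards.

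With GLY, no member was called over all cows, as was the case for every gene tested (0%), and no member had an unadjusted p under 0.05, where 3.92% of genes had one. The numbers of higher and lower members were 18 and 16, with a median log2 fold change of 0.0070, and 22 and 12 with a median of 0.036 without cow 912. Of all genes, 50.8% were higher without that cow. The smallest p values belonged to PEX16, at 0.12 (SE 0.07), PEX13, at 0.10 (SE 0.08), and PEX3, at 0.13 (SE 0.12), on the higher side. On the lower side they belonged to ACOX3, at -0.17 (SE 0.12), PEX7, at -0.08 (SE 0.07), and SCP2, at -0.11 (SE 0.12). All adjusted p were 1. PEX16 had medians of 13.4 CPM in CON_HC, 12.6 in CON_LC, 14.8 in GLY_HC and 13.7 in GLY_LC, with 11 of 15 GLY cows above the CON median of 12.8. The 95% intervals of the 34 members in this comparison all lay between -0.52 and 0.49 on the log2 scale, so that differences up to that size cannot be set aside for the most variable members.

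Under the higher concentrate ration, GLY_HC against CON_HC gave no called member, against 0% of genes. ACOT8, which frees carboxylic acids from acyl-CoA inside the peroxisome, lay between 23.3 and 46 CPM in CON_HC (median 30.1) and between 26.8 and 66.5 CPM in GLY_HC (median 41.7). Of the GLY_HC cows, 7 of 8 were above the CON_HC median. The log2 fold change of 0.44 (SE 0.21, interval 0.01 to 0.87) had an adjusted p of 1. PEX2 ran the other way, at -0.23 (SE 0.11, adjusted p 1), with medians of 20.6 CPM in CON_HC and 18.1 in GLY_HC. These 2 members had an unadjusted p under 0.05, against 2.92% of genes. PEX14 was at 0.20 (SE 0.11) and AGXT at 0.28 (SE 0.16), and PEX7 at -0.12 (SE 0.10) and GNPAT at -0.07 (SE 0.09). ACOT8 overlaps SNX21 in the annotation at hand, and its reads may in part be from that gene.

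Under the lower concentrate ration, GLY_LC against CON_LC also gave no called member, against 0.0628% of genes. ACOX3, a branched-chain acyl-CoA oxidase, was the 1 member with an unadjusted p under 0.05, where 5.65% of genes had one. It lay between 16.2 and 30.4 CPM in CON_LC (median 21.4) and between 10 and 23.8 CPM in GLY_LC (median 17.4), with a log2 fold change of -0.39 (SE 0.17, adjusted p 0.824). Cow 912 had the lowest ACOX3 level of all cows, and without it the value was -0.29 (SE 0.17, adjusted p 1). PEX14 was at -0.22 (SE 0.11), and ABCD3, a carrier of branched acyl-CoA into the peroxisome, at -0.24 (SE 0.12). Cow 912 had the lowest level of all cows for both. It had 11.2 CPM of PEX14, against at least 11.8 in the others, and 57.5 CPM of ABCD3, against at least 68.8. Without cow 912 no member had an unadjusted p under 0.05 in this comparison. On the higher side were PEX3 at 0.24 (SE 0.18), PEX2 at 0.13 (SE 0.11) and PEX16 at 0.13 (SE 0.11). Cow 912 had the highest PEX2 level of all cows, and without it PEX2 was at 0.03 (SE 0.10). The count of 10 higher and 24 lower members turned to 23 higher and 11 lower without cow 912, and the median log2 fold change from -0.037 to 0.024. Of all genes, 49% were higher without that cow.

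The interaction asks whether the CFP difference in GLY cows departed from that in CON cows. No member was called, against 0% of genes. PEX14 had the smallest p, with an interaction of 0.42 on the log2 scale (SE 0.15, interval 0.11 to 0.72, adjusted p 0.999). Its HC medians were below the LC medians in CON (15.0 against 17.0 CPM) and above them in GLY (16.3 against 14.7 CPM). AGXT gave 0.47 (SE 0.23), with medians of 46.1 CPM in CON_HC, 50.8 in CON_LC, 56.2 in GLY_HC and 40.5 in GLY_LC. PEX2 gave -0.36 (SE 0.15), in the opposite direction. These 3 members had an unadjusted p under 0.05, against 4.21% of genes. ACOT8 was at 0.56 (SE 0.30) on the positive side, and on the negative side PEX3 at -0.21 (SE 0.25) and PEX19 at -0.07 (SE 0.11) had the smallest p after PEX2. Without cow 912 PEX14 was at 0.35, AGXT at 0.42 and PEX2 at -0.26, and of these PEX14 alone kept an unadjusted p under 0.05.

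The peroxisome genes of cow 912 departed most from those of the other cows in beta-oxidation. Of the 34 members, 17 were lower in this cow than in each of the other 30 and 2 were higher, where 11.6% of all genes tested were lower than in every other cow. That share includes genes with few reads, and a gene without reads in another cow could not be lower in cow 912. It is therefore not matched to the levels of the members. The cows next most often lowest were GLY_LC cow 102, for 4 members, and GLY_HC cow 131, for 3. EHHADH was at 169 CPM, 0.286 times the median of the other cows, SCP2 at 705 CPM (0.408 times), ACOT8 at 14.2 CPM (0.425 times), ACOX2 at 263 CPM (0.486 times), HSD17B4 at 285 CPM (0.511 times) and ACAA1 at 432 CPM (0.517 times). All 6 beta-oxidation members were below every other cow. The median ratio over the members was 0.696. The import and division genes were split. PEX5 at 43.5 CPM, PEX10 at 31.6 CPM and PEX14 at 11.2 CPM were below all other cows, and PEX2 at 28.9 CPM and PEX19 at 45.8 CPM were above all of them. PEX6, PEX7, PEX13, PEX16 and PEX11A were within the range of the others and above their median. PEX3 (0.863 times), PEX26 (0.756 times) and PEX11G (0.839 times) were within that range too, but below the median. The ether lipid genes AGPS (1.03 times the median of the others) and GNPAT (0.890 times) and the alpha-oxidation enzyme PHYH were also within it. HACL1, named above with PHYH for branched chains and alpha-oxidation, was at 182 CPM and below every other cow. So were AMACR, ECI2, PECR, HAO1, ABCD3 and ABCD4, while DECR2, CROT, PIPOX and AGXT were within the range of the others. The cow's hepatocyte and intestinal marker sums are given above, and their part in these values was not tested.

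**Figure D4:**
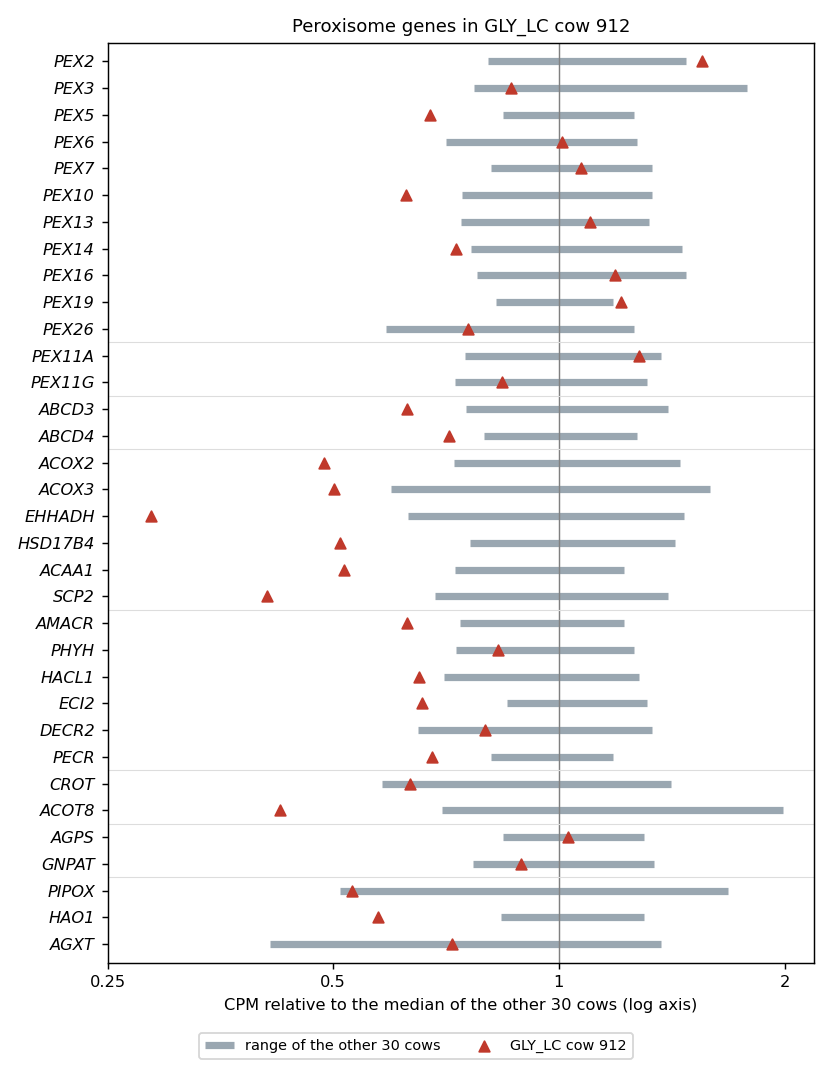
Level of each tested member in GLY_LC cow 912 (triangles) relative to the median of the other 30 cows, on a log axis, with grey bars for the range of those 30 cows. The triangles of all 6 beta-oxidation members lie left of their bars, EHHADH furthest at 0.286, while those of PEX2 and PEX19 lie right of theirs.

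Within feeding groups, cows with more EHHADH tended to have more CROT and ACOX2 by r and by rho, and more HSD17B4 by r only. How much of this was cow 912 differed by gene. In all, 5 pairs were examined over 31 cows on log2 CPM minus the group mean, with permutation tests within groups and Benjamini-Hochberg adjustment over the 5 pairs. For CROT Pearson's r was 0.587 (permutation p 0.0011, adjusted p 0.0053) and Spearman's rho 0.588 (permutation p 5e-04, adjusted p 0.0025). ACOX2 had an r of 0.641 (permutation p 0.0063, adjusted p 0.016) and a rho of 0.485 (permutation p 0.0078, adjusted p 0.02). HSD17B4 had an r of 0.647 (permutation p 0.025, adjusted p 0.042) and a rho of 0.327 (permutation p 0.083, adjusted p 0.1). For ACAA1 r was 0.528 (permutation p 0.046, adjusted p 0.058) and rho 0.333 (permutation p 0.08, adjusted p 0.1). For PEX11A r was 0.052 (permutation p 0.81, adjusted p 0.81) and rho 0.231 (permutation p 0.22, adjusted p 0.22). The 2 cows farthest from the EHHADH median were GLY_LC cow 912 and CON_LC cow 166. Without them r was 0.45 for CROT (permutation adjusted p 0.045), 0.27 for ACOX2 (permutation adjusted p 0.32), 0.078 for HSD17B4 (permutation adjusted p 0.88) and 0.015 for ACAA1 (permutation adjusted p 0.94), and it was 0.472 for PEX11A (permutation adjusted p 0.045). By Spearman's rho the permutation adjusted p without them was 0.055 for both CROT and PEX11A. The relations of EHHADH with ACOX2 and HSD17B4 therefore rest on those cows. The relation with ACAA1 had a permutation adjusted p over 0.05 with all cows too. With cow 912 alone left out, r for CROT was 0.489, with a permutation adjusted p of 0.062 for r and of 0.024 for rho, so that this relation was under 0.05 by rank and over it by r.

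**Figure D5:**
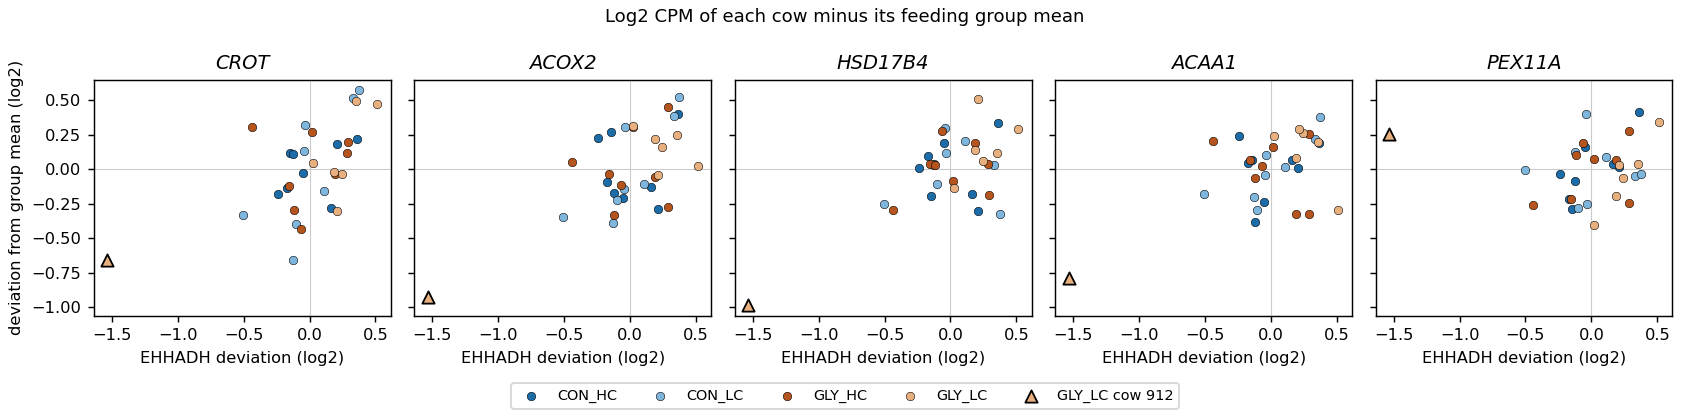
Deviation of each cow from its feeding group mean, in log2 CPM, for EHHADH (horizontal axis) against CROT, ACOX2, HSD17B4, ACAA1 and PEX11A (vertical axis); colours are feeding groups and the triangle is GLY_LC cow 912. Cow 912 lies far to the left in every panel, and r fell from 0.647 to 0.078 for HSD17B4 but from 0.587 to 0.45 for CROT when it and CON_LC cow 166 were left out.

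Of 40 other peroxisome genes, 39 were tested and none was called for CFP, with 16 higher, 23 lower and a median log2 fold change of -0.019. Of the 39, 3 had an unadjusted p under 0.05, against 13.7% of all genes. The smallest p values on the lower side belonged to MFF, the receptor that brings the fission GTPase to peroxisomes and mitochondria, at -0.19 (SE 0.06, adjusted p 0.170), and ACOT4, a peroxisomal thioesterase for succinyl-CoA, at -0.20 (SE 0.08, adjusted p 0.229). On the higher side were the fatty acyl-CoA reductase FAR2 at 0.24 (SE 0.11, adjusted p 0.324) and the carnitine acetyltransferase CRAT at 0.20 (SE 0.11, adjusted p 0.407). CRAT had medians of 116 CPM in CON_HC, 124 in CON_LC, 163 in GLY_HC and 111 in GLY_LC. The paper lists CRAT among the CFP-responsive genes that it relates to blood and performance data. It found such genes by HC against LC within CON or within GLY cows, whereas the fold change given here is over all cows. CRAT ran from 125 to 218 CPM in GLY_HC and from 87.4 to 135 in GLY_LC. In CON_HC it ran from 99.9 to 181 CPM and in CON_LC from 102 to 161. ACOT4 lay between 18.7 and 23.3 CPM in CON_HC (median 21.8), 18.7 and 31.0 in CON_LC (median 24.3), 15.5 and 22.4 in GLY_HC (median 19.5) and 13.4 and 25.2 in GLY_LC (median 23.0). Without cow 912 ACOT4 was called, at -0.24 (SE 0.06, adjusted p 0.0947), where 0.863% of 15752 genes were called.

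Of 25 PPARA targets outside the peroxisome list, none was called for CFP, with 17 higher, 8 lower and a median log2 fold change of 0.066. ANGPTL4, a secreted inhibitor of lipoprotein lipase, was at 0.69 (SE 0.37, adjusted p 0.418). Other genes of the list lay on the lower side, with the pantetheinase VNN1 at -0.57 (SE 0.21, adjusted p 0.213) and the fatty acid binding protein FABP1 at -0.30 (SE 0.17, adjusted p 0.460). VNN1 had medians of 92.9 CPM in CON_HC and 178 in CON_LC, but 96.1 in GLY_HC and 98.7 in GLY_LC. FABP1 had medians of 1750 CPM in CON_HC and 2150 in CON_LC, but 1720 in GLY_HC and 1710 in GLY_LC. Those of ANGPTL4 were 13.1, 9.64, 33.5 and 17.1 CPM in the same order. All genes tested had a lower median and a smaller share of higher genes in this comparison, as given above. Neither EHHADH nor any gene of this list passed the adjusted threshold, and whether the list responded as a whole was not tested.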

How the data were processed

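Liver RNA of 31 cows was sequenced from stranded libraries. Per the labels and methods, the authors trimmed reads with Trim Galore, aligned them to UMD3.1 with HISAT2 2.1.0, and assigned uniquely mapped reads to genes with HTSeq 0.8.0. Whether counting used strand is not given in the sources used here. The authors deposited raw counts for 24616 genes, which were analysed here. The deposited table of normalized signal was not used.

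Genes with at least 20 reads summed over cows were tested with edgeR 4.0.16 in R 4.3.3 (TMM, quasi-likelihood F test, Benjamini-Hochberg adjustment). A model of the 4 groups gave the pairwise contrasts and the interaction, and additive models gave HC versus LC and GLY versus CON. SE is the log2 fold change over the root of F, and intervals are at 95%. Log2 CPM used a prior count of 2. Scripts were tested on simulated data. No pair of cows in a group agreed within sampling noise. Alternatives were RLE and upper-quartile normalization, other filters, a robust fit, DESeq2 1.42.0, fits on the compared groups alone, and each cow left out.

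The members and gene lists were chosen with earlier results of these data known. Named were all called members, and per comparison the 3 members with the smallest p in each direction. From the other lists, called genes or the 2 with the smallest p in each direction for HC versus LC were named. Of these, 1 gene is not reported here.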

Additional observations from a re-analysis of the deposited data

Results flagged for a closer look

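In 8 of 136 combinations of a member and a feeding group, 1 cow stood apart from the others of its group by Dixon's test, and chance gives about 1 in 20. GLY_LC cow 912 accounts for 4 of them, each time as the lowest of its group. Its ACOX2 level was 263 CPM, where the next cow had 487, its EHHADH level 169 CPM (next 498), its SCP2 level 705 CPM (next 1490) and its HACL1 level 182 CPM (next 254). The other 4 were the highest of their groups. These were PEX14 at 22.5 CPM in CON_LC cow 145 (next 17.8), ACOT8 at 46 CPM in CON_HC cow 170 (next 33.1), AGPS at 18.2 CPM in CON_LC cow 259 (next 15.1) and GNPAT at 23.3 CPM in CON_LC cow 941 (next 19.7). No member's interaction of GLY with CFP passed the adjusted threshold.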

How the results depend on the processing

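The count of called members for HC versus LC was 1 (PEX5) with TMM, RLE, filterByExpr, the robust fit and DESeq2, and 0 with upper-quartile normalization, with no filter on low counts, or at an adjusted p under 0.05. Leaving out each cow in turn gave counts of 0 to 1. For GLY_HC versus GLY_LC it was 0 with edgeR and 1 (PEX5, adjusted p 0.099) with DESeq2 on all cows. For the other comparisons it stayed at 0 under every alternative run. With TMM and all cows, 1.45% of all genes were called for HC versus LC and 0.201% for GLY_HC versus GLY_LC. Apart from the fits without cow 912, the shares under the alternatives are not given here. The counts of called members under those alternatives therefore cannot be set against all genes. For EHHADH, without centring on group means r with HSD17B4 was 0.473 and that with PEX11A turned to -0.125. Without GLY_LC cow 912, r was 0.489 for CROT, 0.182 for HSD17B4 and 0.353 for ACOX2. Without the 2 farthest cows, r was 0.078 for HSD17B4, 0.27 for ACOX2 and 0.472 for PEX11A. The cause of these changes was not tested. Among the fold changes of members named by smallest p, each in its own comparison, that of PEX5 alone changed its side of the threshold and none changed sign. No paired analysis was possible because the numbers in the labels are those of single animals and no number occurs in 2 groups. Low totals limit PEX26, PEX11A and ABCD2. In the annotation at hand, 10 members overlap another gene. These are protein-coding genes for PEX6, PEX11A, PEX11G, HACL1, ECI2, PECR and ACOT8, a lncRNA for HSD17B4, a pseudogene for PEX26 and a tRNA for AGPS. That annotation is not of the UMD3.1 assembly used for counting, and whether these overlaps affected the counts was not tested.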
